A study of Mus musculus with 15 samples.

Results

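A set of 25 genes, of 18193 measured, had its highest signal in M2 thymocytes, the last stage of CD4 T cell maturation before exit from the thymus, and little or no rise in the stage before. They were selected on measured values. Signals were log2(intensity + 16), with 1 probe set per gene, the one with the highest mean over all 15 arrays. A gene was kept when its M2 mean was at least 8 and at least 0.8 above each of the 3 earlier stage means, and when its SM&M1 mean exceeded its PostDP mean by less than 0.4. Of 8425 genes that met the first limit, 137 met the second as well, and 26 of these met the third. Genes whose symbols start with Socs, S1pr or Klf were left out, which removed only Socs3. Differences of M2 from the earlier stages, and of SM&M1 from PostDP, therefore chose the genes and are given as descriptions without a test. The genes were not silent before M2: the group mean was above the array median for 20 of the 25 in PreDP, for 22 in PostDP, for 22 in SM&M1 and for 25 in M2. They are accordingly described as genes highest at M2, not as genes switched on there.

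Affymetrix mouse expression arrays were hybridised with RNA from sorted C57BL/6 thymocytes of young adults, 3 samples in each of 5 groups. PreDP (CD69-TCRβ-) and PostDP (CD69+TCRβ+) cells are CD4 CD8 double-positive thymocytes before and after selection signals, and came from B2m-/- mice, which lack MHC class I at the cell surface and select only MHC class II-restricted CD4 T cells. SM&M1 (Qa2-CD69+) and M2 (Qa2+CD69-) cells are less and more mature CD4 single-positive thymocytes, and came from Rag2-GFP BAC transgenic mice, sorted with a GFP gate against recirculating T cells and with NK1.1, CD25 and GL3 against natural killer T, regulatory and γδ T cells. Tak1-deficient SM&M1 cells (Qa2-CD69+) came from Tak1f/f CD4Cre mice, in which Cre driven by Cd4 regulatory sequence deletes Tak1 (Map3k7) from the double-positive stage on; the labels describe the GFP gate and the exclusion antibodies only for the Rag2-GFP mice. Stage and mouse line changed together between PostDP and SM&M1 and cannot be told apart there, and the same holds for Tak1 loss and mouse line. No Tak1-deficient M2 sample was analysed here. Samples are labelled as biological replicates without a statement that they came from separate animals, so p-values rest on the variation among these samples, part of which may be technical.

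Thymocytes that pass positive selection move through semimature and M1 stages to M2, where they gain the ability to leave the thymus and to survive and divide in the periphery. The transcription factor KLF2 and the sphingosine 1-phosphate receptor S1PR1 are the best known components of the exit programme, and Qa2 is a surface marker of the change. TAK1 is a kinase that links antigen and cytokine receptors to NF-κB and to MAP kinases.

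Arrays were on a common scale, each with a trimmed mean intensity of 500. In 14 arrays the median intensity was 80.52 to 121.46, and Tak1-deficient replicate 2 stood apart at 167.81, with a 3′ to 5′ ratio for Actb of 1.62 against 1.02 to 1.18 and correlations of 0.832 and 0.818 with replicates 1 and 3 of its group, which correlated at 0.976 with each other; the lowest within any other group was 0.964. Map3k7 was at 10.40 to 10.46 in SM&M1 and at 4.76, 6.07 and 5.35 in Tak1-deficient replicates 1, 2 and 3. The sort marker Cd69 was at 12.36 to 12.66 in SM&M1 and at 11.32 to 11.67 in M2, so its transcript was still present in cells sorted as CD69-. Cd8a was at 9.28 to 10.22 in the Tak1-deficient arrays and at 7.65 to 8.03 in SM&M1. All SM&M1 and M2 arrays carried high signal for Xist as well as for the Y-linked gene Eif2s3y, whereas each remaining array was high in 1 of the pair. Within the Tak1-deficient group replicate 2 was high in Xist (14.01) and the other two in Eif2s3y (11.38 and 11.49), so this array also differed from them in sex-linked transcripts. Neutrophil genes (10 measured) summed to an intensity of 4178 and 4596 in replicate 1 of SM&M1 and of M2, and of 4532 and 5688 in Tak1-deficient replicates 2 and 3, against 369 to 678 in all other arrays; their part in the results was not tested. None of the 25 genes belongs to a marker list of another cell type, but these lists do not hold Cd72, which is best known from B cells. The rule applied with replicates 2 and 3 alone of SM&M1 and M2, which also took part in the choice, gave 35 genes. It kept 23 of the 25 and lost Cd72 and Rassf3. Without replicate 1 of all 4 stages the gap of Cd72 was 0.50. None of this tests for RNA of other cells. In bulk RNA, more cells of a type and more RNA per cell cannot be told apart.

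Promoter windows of 300 bases (250 before to 50 after an annotated start, RefSeq, GRCm38.p6) were available for 21 of the 25 genes. Those of Sidt1, the gene with the widest gap between M2 and the next stage, and of Hs3st3b1, 2810001G20Rik and Tent5c, which also rose at PostDP, are shown because they are the genes with the widest gap and with a tested change at an earlier step. Capitals mark a match to any of 4 short motifs, searched on both strands: GGGNGTGG for KLF factors, GAAANNGAA for the interferon-stimulated response element, GGGNNTTCC for NF-κB and TTCNNNGAA for STAT factors. The window of Sidt1 is chr16:44332789-44333088 on the minus strand, that of Hs3st3b1 chr11:63922235-63922534 on the minus strand, that of 2810001G20Rik chr11:64079234-64079533 on the plus strand and that of Tent5c chr3:100489143-100489442 on the minus strand; each sequence is written 5′ to 3′ on the strand of its gene.
Sidt1: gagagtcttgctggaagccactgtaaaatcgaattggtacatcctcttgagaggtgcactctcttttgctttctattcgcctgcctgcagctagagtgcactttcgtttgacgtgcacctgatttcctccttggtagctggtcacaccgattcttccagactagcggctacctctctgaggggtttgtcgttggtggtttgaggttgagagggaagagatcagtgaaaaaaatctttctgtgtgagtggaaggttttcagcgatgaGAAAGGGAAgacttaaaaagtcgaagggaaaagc
Hs3st3b1: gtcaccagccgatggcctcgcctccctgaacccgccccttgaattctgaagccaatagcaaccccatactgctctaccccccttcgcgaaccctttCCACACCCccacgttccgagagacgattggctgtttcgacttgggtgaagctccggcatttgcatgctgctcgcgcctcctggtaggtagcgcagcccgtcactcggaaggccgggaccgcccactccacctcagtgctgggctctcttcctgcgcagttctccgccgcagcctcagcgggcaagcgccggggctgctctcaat
2810001G20Rik: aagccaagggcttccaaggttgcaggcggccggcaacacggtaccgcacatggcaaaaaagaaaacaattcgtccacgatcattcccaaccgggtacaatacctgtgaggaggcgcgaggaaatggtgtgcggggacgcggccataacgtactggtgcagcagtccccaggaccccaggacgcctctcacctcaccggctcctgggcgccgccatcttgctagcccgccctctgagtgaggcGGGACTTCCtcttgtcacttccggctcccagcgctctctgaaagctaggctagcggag
Tent5c: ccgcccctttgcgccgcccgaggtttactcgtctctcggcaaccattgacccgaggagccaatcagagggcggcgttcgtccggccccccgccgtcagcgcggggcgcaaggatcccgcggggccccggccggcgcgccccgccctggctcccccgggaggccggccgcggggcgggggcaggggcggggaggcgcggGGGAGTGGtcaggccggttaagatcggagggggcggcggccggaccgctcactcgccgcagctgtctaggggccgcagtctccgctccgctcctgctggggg

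Sidt1 holds an interferon-response letter match 16 bases after the start, Hs3st3b1 and Tent5c hold a KLF match at -154 and -52 relative to it, and 2810001G20Rik an NF-κB match at -8. Over the 30 windows of the 21 genes, KLF letters were present in 6 (20%, against 17.62% of 32851 windows of all genes), interferon-response letters in 2 (6.67% against 8.56%), NF-κB letters in 4 (13.33% against 5.82%) and STAT letters in 2 (6.67% against 8.3%). The NF-κB matches lie in 2810001G20Rik, Sgsh, Adcy7 and Zbtb11os1, and the interferon-response matches in Sidt1 and Sgk1. RUNX letters (TGTGGT) were in 6 windows (20% against 16.76%) and FOXO letters (TGTTTAC) in 0 of 30 (against 3.65%). Windows of 1 gene can overlap and share a match, and a match is a description of these letters, not of binding.

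**Figure D1:**
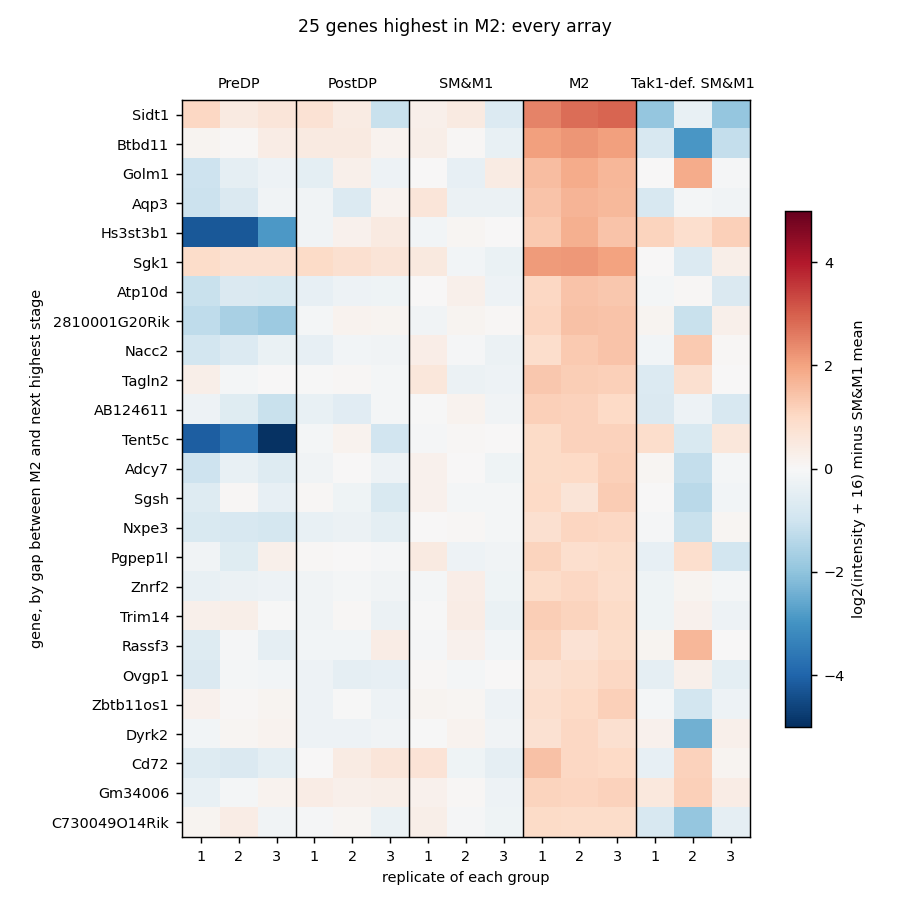
Signal of the 25 genes in all 15 arrays, as log2(intensity + 16) minus the gene's SM&M1 mean (colour scale from -5 to 5), with genes ordered by the gap between the M2 mean and the next highest stage mean. The M2 mean is the highest of the 5 group means in each row, as the choice of genes requires for the 4 stages; PreDP is far below the other groups in Hs3st3b1 and Tent5c, and Tak1-deficient replicate 2 differs from replicates 1 and 3 in many rows.

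The gap between the M2 mean and the highest earlier stage mean ran from 0.81 to 2.03 with a median of 1.04, on the log2 scale. M2 exceeded SM&M1 by 0.87 to 2.73 (median 1.12) and PreDP by 0.81 to 5.35 (median 1.73). For all 25 genes the lowest M2 array lay above all 9 arrays of the earlier stages, a property of 758 of the 18193 genes measured. The next highest stage was SM&M1 for 11 genes, PreDP for 7 and PostDP for 7, and SM&M1 was at or below PostDP for 8. M2 replicates lay close together, with SDs of 0.01 to 0.31 (median 0.14, n = 3).

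**Figure D2:**
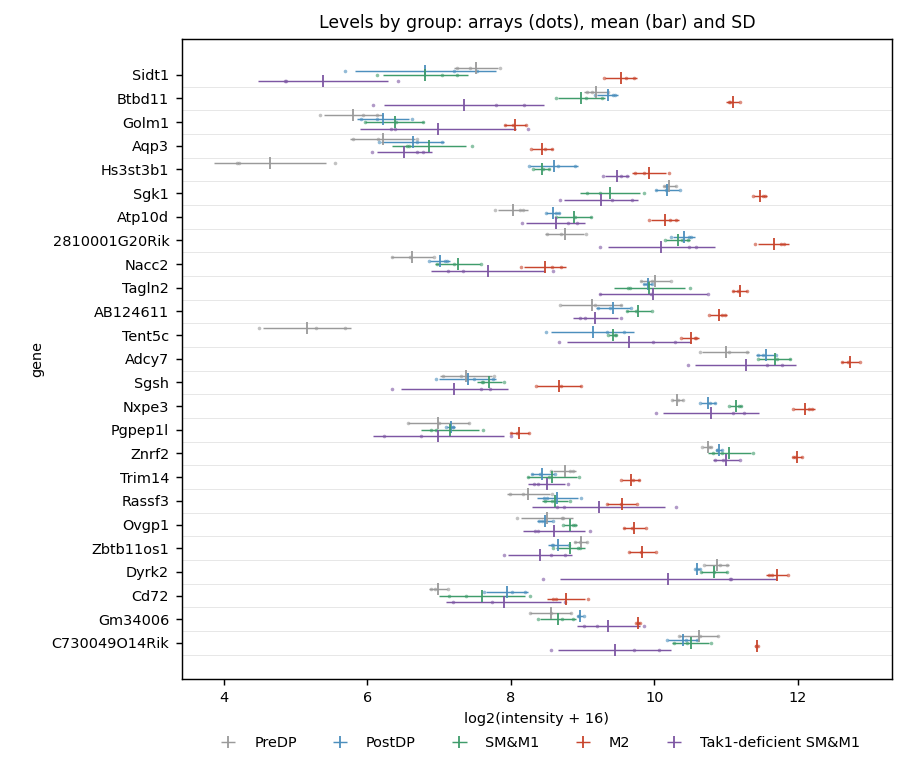
Levels of the 25 genes by group on the log2(intensity + 16) scale. Small dots are the 3 arrays of a group, the vertical bar is the mean and the horizontal line the SD; M2 (red) lies to the right of PreDP, PostDP and SM&M1 in each row, and the Tak1-deficient SD (purple) reaches 1.51 for Dyrk2.

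Genes of membrane and surface proteins included the one with the widest gap. Sidt1 encodes a transmembrane protein related to the nematode double-stranded RNA transporter SID-1. Its signal was 7.85, 7.25 and 7.44 in PreDP, 7.53, 7.20 and 5.69 in PostDP, 7.05, 7.26 and 6.13 in SM&M1 and 9.29, 9.61 and 9.72 in M2 (replicates 1, 2 and 3 in order here and below). All M2 arrays lay above the others, and M2 exceeded SM&M1 by 2.73, the widest difference of the 25. Aqp3, a water and glycerol channel, was at 5.80, 6.15 and 6.70 in PreDP, 6.69, 6.16 and 7.04 in PostDP, 7.45, 6.58 and 6.55 in SM&M1 and 8.28, 8.57 and 8.47 in M2. Golm1, a Golgi membrane glycoprotein, was at 5.34, 5.95 and 6.13 in PreDP, 5.91, 6.62 and 6.14 in PostDP, 6.40, 5.96 and 6.77 in SM&M1 and 7.92, 8.22 and 8.03 in M2. Both were dim before M2, where added background compresses differences on this scale. Atp10d belongs to the P4-ATPase family of lipid flippases and is annotated in RefSeq as a transcribed pseudogene in the C57BL/6J reference. It was at 7.79, 8.17 and 8.13 in PreDP, 8.48, 8.62 and 8.67 in PostDP, 8.89, 9.12 and 8.63 in SM&M1 and 9.93, 10.30 and 10.22 in M2, with group means in the order PreDP, PostDP, SM&M1, M2.

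Cd72 encodes a C-type lectin receptor best known as an inhibitor of B cell receptor signalling. It was at 6.94, 6.88 and 7.12 in PreDP, 7.62, 8.02 and 8.19 in PostDP, 8.27, 7.38 and 7.14 in SM&M1 and 9.07, 8.63 and 8.59 in M2. Replicate 1 was the highest array in both SM&M1 and M2, and the lowest M2 array lay 0.32 above the highest earlier array. B cell genes (11 measured) summed to intensities of 4351, 1934 and 1721 in the SM&M1 arrays and of 6031, 4056 and 4638 in the M2 arrays. The sum thus moved with Cd72 between these groups. It was higher in PreDP (12068 to 13701), where Cd72 was lowest. Ighm made up a large part of the sum in each of these groups. Its mean log2 signal was 13.36 in PreDP, 10.45 in SM&M1 and 11.81 in M2. Cd79a and Ms4a1 were at 5.76 and 6.93 in PreDP and at 7.33 and 7.46 in M2. Cd79b went the other way, from 10.55 in PreDP to 6.97 in M2. Of the 11 B cell genes 6 were above the array median in SM&M1 and 5 in M2, where Cd79b, Pax5, Ebf1, Vpreb3, Fcrla and Cr2 were below it. M2 minus SM&M1 differences were 1.36 for Ighm, 0.42 for Cd79a, 0.22 for Ms4a1 and -0.04 for Cd79b. Each of Ighm, Cd79a, Ms4a1 and Cd79b was highest in replicate 1 of both groups, as Cd72 was. The part of B cell RNA in the Cd72 signal was not tested. AB124611, a protein-coding gene without a descriptive name, was at 9.53, 9.17 and 8.68 in PreDP, 9.39, 9.21 and 9.68 in PostDP, 9.75, 9.96 and 9.61 in SM&M1 and 10.98, 10.95 and 10.77 in M2, and its M2 arrays did not overlap any other stage.

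Kinases, a cyclase and a Ras-association domain protein of intracellular signalling formed another group. Sgk1, a serum- and glucocorticoid-regulated kinase that acts downstream of PI3K, was at 10.31, 10.14 and 10.17 in PreDP, 10.35, 10.17 and 10.02 in PostDP, 9.86, 9.24 and 9.07 in SM&M1 and 11.51, 11.54 and 11.38 in M2. SM&M1 was its lowest stage, so that M2 exceeded SM&M1 by 2.09 but PreDP by 1.27. Adcy7, an adenylyl cyclase that makes cyclic AMP, was at 10.64, 11.29 and 11.05 in PreDP, 11.52, 11.70 and 11.44 in PostDP, 11.88, 11.71 and 11.45 in SM&M1 and 12.62, 12.69 and 12.86 in M2. Its group means were in the order PreDP, PostDP, SM&M1, M2, with overlap between PostDP and SM&M1. Dyrk2, a dual-specificity kinase, was at 10.69, 10.92 and 11.01 in PreDP, 10.57, 10.59 and 10.64 in PostDP, 10.83, 11.02 and 10.65 in SM&M1 and 11.60, 11.87 and 11.65 in M2. Its earlier stages had means of 10.60 to 10.87, and M2 exceeded the highest of them by 0.83. Rassf3, a Ras-association domain protein, was at 7.99, 8.57 and 8.17 in PreDP, 8.47, 8.50 and 8.98 in PostDP, 8.57, 8.82 and 8.47 in SM&M1 and 9.75, 9.34 and 9.54 in M2, and its lowest M2 array lay 0.36 above the highest earlier one.

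Both a maker and a degrader of heparan sulfate were in the set. Hs3st3b1, a sulfotransferase that adds 3-O-sulfate to heparan sulfate chains, was at 4.19, 4.21 and 5.55 in PreDP, 8.25, 8.66 and 8.90 in PostDP, 8.31, 8.54 and 8.45 in SM&M1 and 9.73, 10.20 and 9.85 in M2. PreDP was far below the other stages, PostDP and SM&M1 overlapped, and M2 stood above them. Sgsh, the lysosomal sulfamidase needed to degrade heparan sulfate, was at 7.05, 7.77 and 7.31 in PreDP, 7.75, 7.49 and 6.96 in PostDP, 7.90, 7.60 and 7.61 in SM&M1 and 8.70, 8.36 and 8.97 in M2. Its other probe set went the other way, with an M2 minus SM&M1 difference of -0.30, so the probe sets of Sgsh disagree.

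Nuclear and RNA-directed proteins included a pair with BTB domains. Btbd11, which carries BTB and ankyrin repeat domains, was at 9.13, 9.06 and 9.35 in PreDP, 9.42, 9.45 and 9.18 in PostDP, 9.27, 9.05 and 8.62 in SM&M1 and 11.04, 11.20 and 11.05 in M2. M2 exceeded the next stage by 1.75, and the lowest M2 array was 1.59 above the highest earlier array. The other probe sets of Btbd11 had gaps of 1.57 and 0.19, so the size of the step differs between them. Nacc2, a BTB domain repressor, was at 6.35, 6.59 and 6.93 in PreDP, 6.86, 7.11 and 7.08 in PostDP, 7.59, 7.21 and 6.97 in SM&M1 and 8.14, 8.58 and 8.70 in M2. Its other 3 probe sets had M2 minus SM&M1 differences of 2.27, 1.54 and 2.83, against 1.21 for the probe set that chose it. In the earlier stages they had means of 4.44 to 6.47, below the mean array medians of 6.83 to 6.97. Their differences therefore start from dim values, and their size is only a description. Tent5c, a non-canonical poly(A) polymerase, was at 5.29, 5.69 and 4.49 in PreDP, 9.35, 9.58 and 8.49 in PostDP, 9.36, 9.47 and 9.45 in SM&M1 and 10.37, 10.57 and 10.56 in M2. Like Hs3st3b1 it was near the bottom of the range in PreDP and overlapped between PostDP and SM&M1.

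Znrf2, a RING-type E3 ubiquitin ligase, was at 10.67, 10.77 and 10.80 in PreDP, 10.87, 10.95 and 10.88 in PostDP, 10.94, 11.38 and 10.81 in SM&M1 and 11.96, 12.06 and 11.93 in M2. Trim14, a tripartite motif protein that takes part in antiviral signalling, was at 8.82, 8.86 and 8.57 in PreDP, 8.41, 8.61 and 8.30 in PostDP, 8.54, 8.95 and 8.24 in SM&M1 and 9.79, 9.70 and 9.54 in M2. M2 stood above the earlier stages in both, and SM&M1 replicate 2 was the highest SM&M1 array in both. Tagln2, an actin-binding protein of the transgelin family, was at 10.24, 9.82 and 9.97 in PreDP, 9.90, 9.97 and 9.85 in PostDP, 10.50, 9.63 and 9.66 in SM&M1 and 11.30, 11.16 and 11.10 in M2. SM&M1 replicate 1 was high for that group, and the M2 arrays were still 0.60 or more above it.

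Nxpe3, a neurexophilin and PC-esterase domain protein, was at 10.39, 10.32 and 10.25 in PreDP, 10.77, 10.84 and 10.64 in PostDP, 11.17, 11.20 and 11.05 in SM&M1 and 11.93, 12.20 and 12.16 in M2, with 4 groups that did not overlap and were in stage order. Pgpep1l, a pyroglutamyl-peptidase 1-like gene, was at 6.99, 6.57 and 7.42 in PreDP, 7.20, 7.19 and 7.10 in PostDP, 7.62, 6.89 and 6.96 in SM&M1 and 8.12 ± 0.13 (SD, n = 3) in M2. Ovgp1, an oviduct glycoprotein of the chitinase-like family, was at 8.09, 8.73 and 8.71 in PreDP, 8.59, 8.39 and 8.44 in PostDP, 8.90, 8.73 and 8.87 in SM&M1 and 9.57, 9.69 and 9.88 in M2. In Pgpep1l and Ovgp1 the PreDP and PostDP arrays overlapped, and M2 exceeded the highest earlier stage mean, that of PostDP and of SM&M1 in turn, by 0.95 and 0.89.

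Long non-coding or unnamed transcripts made up the remainder. The non-coding RNA 2810001G20Rik was at 9.05, 8.70 and 8.50 in PreDP, 10.24, 10.51 and 10.48 in PostDP, 10.15, 10.46 and 10.39 in SM&M1 and 11.41, 11.81 and 11.77 in M2. Its order was that of Hs3st3b1, low in PreDP, overlapping in PostDP and SM&M1 and highest in M2. Zbtb11os1, transcribed opposite Zbtb11, was at 9.06, 8.89 and 8.97 in PreDP, 8.59, 8.82 and 8.57 in PostDP, 8.96, 8.93 and 8.59 in SM&M1 and 9.65, 9.82 and 10.02 in M2. The non-coding RNA Gm34006 was at 8.27, 8.57 and 8.83 in PreDP, 9.01, 8.93 and 8.95 in PostDP, 8.87, 8.72 and 8.38 in SM&M1 and 9.78, 9.74 and 9.81 in M2. C730049O14Rik, which matched no RefSeq gene, was at 10.63, 10.88 and 10.34 in PreDP, 10.44, 10.60 and 10.18 in PostDP, 10.79, 10.46 and 10.28 in SM&M1 and 11.45, 11.42 and 11.42 in M2. The M2 arrays of C730049O14Rik had an SD of 0.01 and lay above every earlier array.

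The limit on the gap split a continuous range. The nearest genes inside it were C730049O14Rik (0.81), Gm34006 (0.81) and Cd72 (0.82), and the nearest outside were Slpi (0.78), Map3k5 (0.74) and Traf3ip2 (0.74). The left-out gene Socs3, a feedback inhibitor of cytokine signalling, had means of 10.33, 8.11, 8.26 and 11.38 in PreDP, PostDP, SM&M1 and M2. Genes with an M2 gap but a rise already at SM&M1 were more numerous and included Klf2 (7.70 in PostDP, 10.78 in SM&M1, 12.32 in M2) and S1pr1 (7.49, 9.65 and 11.75). Of the 25 genes, 11 stayed in the set whichever 1 of the 12 arrays of the 4 stages was left out, and 14 dropped out with 1 to 3 of those arrays.

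The rule was also applied without replicate 1, 2 or 3 of the 4 stages, and the genes so chosen were read in the arrays left out. Without replicate 1 it chose 30 genes, and in the left-out arrays M2 was above all 3 earlier stages for 28 of them, with a median gap of 0.78. Without replicate 2 it chose 31, of which 29 had M2 highest in the left-out arrays (median gap 0.82). Without replicate 3 it chose 19, and M2 was highest for all 19 (median gap 1.05). Among the 8425 genes with an M2 mean of at least 8, M2 was highest in these single arrays for 22.7%, 27.7% and 29.1%. The 8425 were picked with all M2 arrays and the chosen genes without the left-out one, so these shares are not like for like. Each reading rests on a single array per stage, and the genes are not replicates of it.

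**Figure D3:**
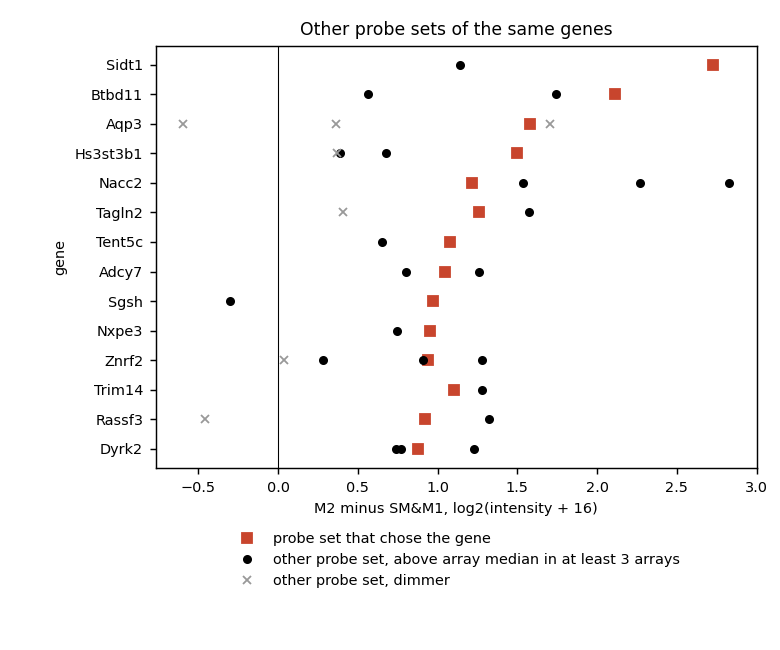
M2 minus SM&M1 on the log2(intensity + 16) scale for the 14 genes with more than 1 probe set: the probe set that chose the gene (red square), other probe sets above the array median in at least 3 arrays (black dots) and dimmer ones (grey crosses). All black dots but that of Sgsh (-0.30) lie to the right of 0.

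Other probe sets of the same genes gave a reading that the rule did not use, although the target gene and the RNA are the same. There were 29 in 14 of the 25 genes, and 22 of them, in 13 genes, were above the array median in at least 3 arrays. M2 was the highest of the 4 stages in 20 of these 22, and the gap was at least 0.8 in 10. The exceptions were a probe set of Sgsh (gap -0.30) and 1 of Znrf2 (gap -0.03). This filter counts M2 arrays, so a probe set can pass it because M2 is high. A probe set of Nacc2 that passed had means of 4.44, 4.44 and 6.15 in PreDP, PostDP and SM&M1, and of 8.42 in M2. Among the dimmer probe sets the gap ran from -0.72 to 1.70, both ends in Aqp3. The share over all probe sets was not calculated, so these counts are a description. Other probe sets of Hs3st3b1 showed smaller steps than the one used: a pair above the array median had M2 minus SM&M1 differences of 0.39 and 0.68. For 11 genes no other probe set was measured.

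PostDP was compared with PreDP to ask which of the genes also respond at the double-positive stage; the rule sets no limit on this contrast, but it used both means, held both below M2 and, by its cap on SM&M1 minus PostDP, favours genes high in PostDP. Genes were tested with limma over the 11871 genes above the array median in at least 3 arrays, with 1 mean per group and 10 residual degrees of freedom, and called at a Benjamini-Hochberg adjusted p under 0.05. All 25 genes were tested, 23 of which were above the array median in at least 3 arrays outside M2. Of the 25, 3 rose, 0 fell and 22 were not called, beside 7.35% of all genes tested called higher and 7.57% called lower. Both Tent5c and Hs3st3b1 were below the array median in all 3 PreDP arrays, so the size of their differences depends on how dim values are treated. Tent5c rose by 3.98 ± 0.40 (SE, n = 3 per group; limma adjusted p = 1.76e-05), Hs3st3b1 by 3.95 ± 0.31 (adjusted p = 1.81e-06) and 2810001G20Rik by 1.66 ± 0.29 (adjusted p = 0.00162). In each the 3 PostDP arrays lay above the 3 PreDP arrays. With PreDP values raised to the array median, an alternative chosen after seeing the data, the differences of Tent5c and Hs3st3b1 were 2.31 and 1.77. An unadjusted p under 0.05 was found for 5 of the 25, beside 25.7% of all genes tested. The median difference over the 25 was 0.30, against 0.01 over all genes tested, and 17 means were higher and 8 lower; these are descriptions, since the choice of genes bears on them. Centring each array on its median shifted every PostDP minus PreDP difference by -0.145 and left 16 higher and 9 lower.

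Array sets did not overlap for 9 of the 25 genes on the higher side and 2 on the lower side, beside 19.1% and 19.6% of all genes tested. Cd72 (0.96 ± 0.36, adjusted p = 0.0993) and Atp10d (0.56 ± 0.21, adjusted p = 0.102) were among those that did not overlap and were not called. In limma with replicate number as a block and these groups alone, both were called (adjusted p = 0.0105 and 0.0299) and the count was 5, all higher, beside 11% of all genes called higher in that fit. Without Tak1-deficient replicate 2, whose spread enters the shared error, the count was 7, with Adcy7 and Nxpe3 called as well, beside 12.2% of all genes called higher. Another probe set of Tent5c had means of 4.46 in PreDP and 6.91 in PostDP, while other probe sets of Hs3st3b1 went from 6.47 to 7.03 and from 7.03 to 7.28.

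**Figure D4:**
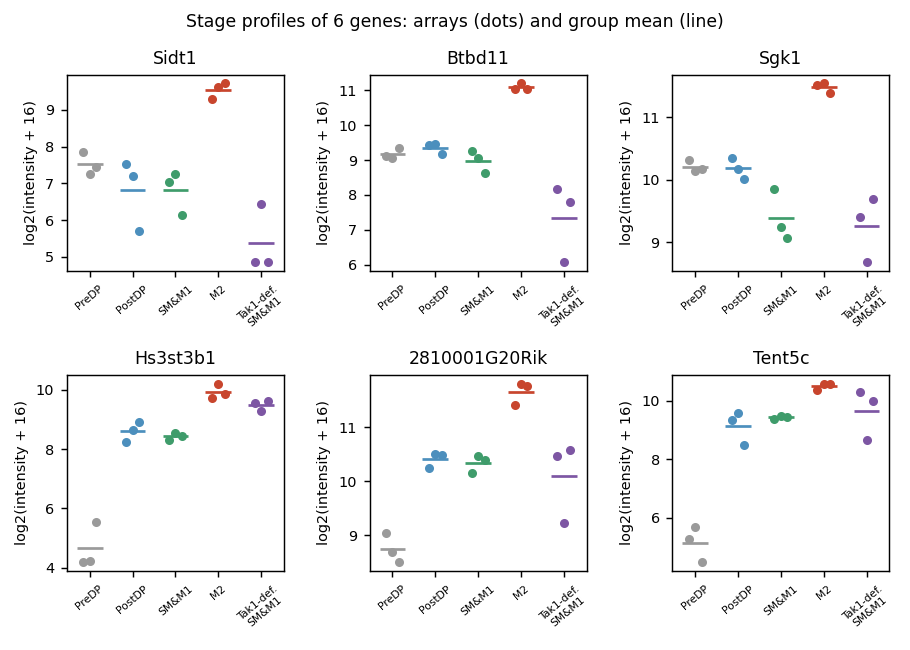
Signal by array (dots) and group mean (line) for 6 genes, on the log2(intensity + 16) scale with a separate axis per gene. The upper row shows the 3 genes with the widest M2 minus SM&M1 difference; the lower row shows the 3 that were also higher in PostDP than in PreDP. In the lower row PostDP and SM&M1 are at like levels, which the rule favours, and M2 is above both.

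Some of the genes lie near one another. Hs3st3b1 and 2810001G20Rik, which shared a stage profile, are both on chromosome 11 with 4 annotated genes between them. Nxpe3 and Zbtb11os1 are on chromosome 16 with 7 genes between them. Within 5 kb of 14 of the genes lay 17 neighbours with a probe set, whose M2 minus SM&M1 differences ran from -0.77 to 0.95 with a median of 0.07. Only 2 reached 0.8: Slc26a11, which overlaps Sgsh (0.95), and Scml4, which overlaps Gm34006 (0.80). Scml4, a polycomb family gene, was left out of the set because its mean rose from 7.83 in PostDP to 8.41 in SM&M1 before it reached 9.21 in M2. Zbtb11, on the strand opposite Zbtb11os1, had an M2 minus SM&M1 difference of 0.46. Probe sets of overlapping genes are taken as annotated. Of 24 genes matched to RefSeq, 5 were on chromosome 10, or 20.8% against 4.77% of all matched genes, a description without a test.

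The comparison of Tak1-deficient with Tak1-sufficient SM&M1 asked whether the level of these genes before M2 changes when Tak1 is lost. The Tak1-deficient arrays played no part in the choice of the genes, but the rule held the SM&M1 mean down. In limma 0 of the 25 genes were called in either direction, beside 0.43% of genes tested called higher and 1.26% called lower; 6 of the 25 had an unadjusted p under 0.05, against 17.9% of all genes tested. The Tak1-deficient mean was below the SM&M1 mean for 17 genes and above it for 8, with a median difference of -0.23 against 0.05 over all genes tested, 45.1% of which had a lower mean. The median of the 25 was -0.13 without Tak1-deficient replicate 1 or 2, -0.09 without replicate 3 and -0.10 without SM&M1 replicate 1. Centring each array on its median shifted every difference by -0.147 and left 18 lower and 7 higher. Replicates of the Tak1-deficient group were far apart, with SDs of 0.17 to 1.51 (median 0.75, n = 3), against 0.06 to 0.60 (median 0.25) in SM&M1.

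Btbd11 and Sidt1 had the lowest values relative to SM&M1. Btbd11 was at 8.18, 6.08 and 7.79 in Tak1-deficient replicates 1, 2 and 3, all below the SM&M1 arrays (9.27, 9.05 and 8.62). The difference was -1.63 ± 0.39 (SE; 95% interval -2.48 to -0.78; limma adjusted p = 0.0586). Sidt1 was at 4.87, 6.43 and 4.86, with replicate 2 inside the range of SM&M1 (7.05, 7.26 and 6.13). In replicates 1 and 3 the intensity was 13.3 and 13.1, far below the array medians, and the SM&M1 mean was itself below the array median, so the size of the difference depends on the pseudocount (-1.99 with a pseudocount of 1). Its difference was -1.43 ± 0.49 (95% interval -2.49 to -0.36; adjusted p = 0.169). Without Tak1-deficient replicate 2 both passed in limma, Btbd11 with a smaller difference of -0.996 (adjusted p = 0.0171) and Sidt1 at -1.95 (adjusted p = 0.0434), and these were the only calls among the 25. Btbd11 also passed without replicate 1 (-2.05, adjusted p = 0.0199), with the mean of its probe sets (-0.84, 0.0126), with the filter at the 75th percentile (0.032) and with trended robust moderation (0.0403). The other probe sets of Btbd11 were at -0.36 and -0.53 relative to SM&M1, and that of Sidt1 at 0.10 in the means.

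The unnamed transcript C730049O14Rik was at 9.72, 8.56 and 10.07 and AB124611 at 9.04, 9.53 and 8.97, each below all SM&M1 arrays. Their differences were -1.06 ± 0.31 (adjusted p = 0.108) and -0.60 ± 0.23 (adjusted p = 0.202) in limma, and that of C730049O14Rik passed without Tak1-deficient replicate 3 (-1.37, adjusted p = 0.0418) but was -0.61 without replicate 2. With Btbd11 these made 3 of the 25 genes whose Tak1-deficient arrays lay wholly below SM&M1, beside 9.01% of all genes tested. Hs3st3b1, at 9.53, 9.29 and 9.62, and Gm34006, at 9.20, 9.85 and 9.02, lay wholly above SM&M1, beside 11.3% of all genes. Hs3st3b1 differed by 1.05 ± 0.31 (95% interval 0.38 to 1.72; adjusted p = 0.112) and Gm34006 by 0.70 ± 0.21 (adjusted p = 0.123; 0.45 without replicate 2). The SD of Hs3st3b1 in the Tak1-deficient arrays, 0.17, was the lowest of the 25 genes.

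**Figure D5:**
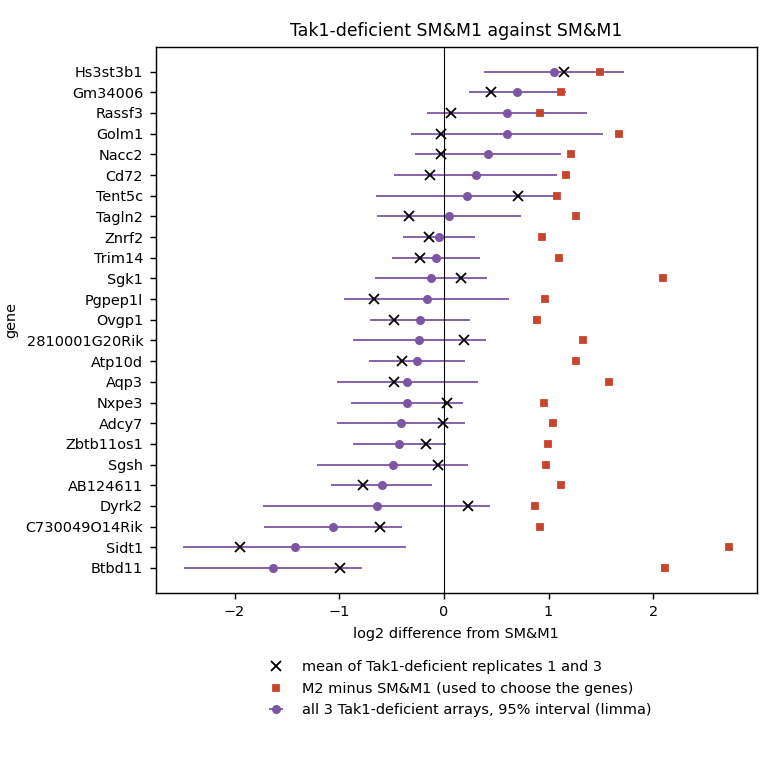
Tak1-deficient SM&M1 minus SM&M1 for the 25 genes, with the limma 95% interval (purple), the mean of Tak1-deficient replicates 1 and 3 alone (black cross) and, for scale, M2 minus SM&M1 (red square, the contrast that chose the genes). Intervals of most genes include 0; those of Btbd11, Sidt1, C730049O14Rik and AB124611 lie below it and those of Hs3st3b1 and Gm34006 above it, none of them called after adjustment.

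The other genes that rose at PostDP were split by replicate in the Tak1-deficient group. Tent5c was at 10.29, 8.67 and 9.98, with replicates 1 and 3 above SM&M1 and replicate 2 below it. 2810001G20Rik was at 10.48, 9.24 and 10.58, with replicates 1 and 3 again above SM&M1 and replicate 2 below. Sgk1 was at 9.41, 8.68 and 9.68, a difference of -0.13 ± 0.25 whose 95% interval was -0.66 to 0.41. Those arrays overlapped SM&M1. Znrf2 was at 10.84, 11.20 and 10.96, with an interval of -0.39 to 0.30 for the difference. Trim14 was at 8.38, 8.80 and 8.32, with an interval of -0.50 to 0.35. For the probe sets used, all 3 intervals leave out differences as large as the M2 minus SM&M1 values of these genes, which were 2.09, 0.94 and 1.10. Another probe set of Znrf2 was at -0.79 relative to SM&M1 in the means, outside that interval, and its remaining ones at -0.06, -0.06 and 0.08.

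Replicate 2 lay apart from replicates 1 and 3 in most of the remaining genes, above both in 14 of the 25 and below both in 11. Dyrk2 was at 11.05, 8.45 and 11.07. Adcy7 was at 11.78, 10.47 and 11.56. Nxpe3 was at 11.09, 10.02 and 11.26. In these genes replicate 2 lay below all SM&M1 arrays and the mean difference rested on it. Sgsh was at 7.71, 6.35 and 7.58. Zbtb11os1 was at 8.75, 7.91 and 8.56. Replicate 2 was again the lowest. In the opposite direction, Golm1 was at 6.39, 8.23 and 6.33. Nacc2 was at 7.13, 8.59 and 7.33. Rassf3 was at 8.74, 10.30 and 8.64. In these genes replicate 2 was within or above the range of M2, and replicates 1 and 3 were within the range of SM&M1. Cd72 was at 7.19, 8.76 and 7.74. Tagln2 was at 9.24, 10.75 and 9.95. Ovgp1 was at 8.38, 9.10 and 8.34. Replicate 2 was the highest here too, and it reached the lowest M2 array for Cd72 alone of these. Atp10d was at 8.80, 8.92 and 8.15. Aqp3 was at 6.07, 6.78 and 6.69. Both overlapped the SM&M1 arrays. Pgpep1l was at 6.99 ± 0.91 (SD, n = 3), with replicate 2 at the level of the lowest M2 array. Another probe set of Nacc2 had a Tak1-deficient minus SM&M1 difference of -1.43, where that of the probe set used was 0.42 and those of the remaining probe sets were 0.14 and 0.24.

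Against M2 itself, the Tak1-deficient SM&M1 mean was lower for all 25 genes, by at least 0.8 for 21 of them; this contrast also compares SM&M1 with M2 cells and is a description. All Tak1-deficient arrays were below the lowest M2 array for 19 genes, beside 13.8% of all genes tested, a count that rests on the M2 values used to choose the genes. In the other 6, which were Golm1, Nacc2, Pgpep1l, Rassf3, Cd72 and Gm34006, replicate 2 reached it. With replicates 1 and 3 alone the Tak1-deficient arrays were below all M2 arrays for 25 of 25 genes, beside 22.9% of all genes, with the same limit. Relative to SM&M1, replicates 1 and 3 were both below all its arrays for 6 genes, beside 16.4% of all genes tested, and both above for 5, beside 22.8%. The Tak1-deficient mean was nearer to M2 than to SM&M1 for 3 genes, Hs3st3b1, Rassf3 and Gm34006. With replicates 1 and 3 alone, Rassf3 (0.07 from SM&M1, -0.85 from M2) and Gm34006 (0.45 and -0.66) were nearer to SM&M1. Nearer to M2 were then Hs3st3b1 (1.15 from SM&M1, -0.35 from M2) and Tent5c (0.71 and -0.37).

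None of the 25 genes is in the lists of known maturation, interferon, NF-κB, chemokine receptor, cytokine receptor, survival, receptor-induced or quiescence genes used as background. Of 45 tested maturation and egress genes, 7 rose in M2 against SM&M1 and 2 fell in limma, beside 0.952% of all genes called higher and 1.38% called lower. They included S1pr1 (2.10 ± 0.47, SE) and Klf2 (1.53 ± 0.20) among those that rose, and Cd24a (-2.50 ± 0.56) and Ccr9 (-2.30 ± 0.35) as the pair that fell. With replicate number as a block and these groups alone 17 rose and 1 fell, beside 2.28% and 2.72% of all genes. Without Tak1-deficient replicate 2, 16 rose and 3 fell, beside 2.36% and 3.3%. Of the same 45 genes, 0 rose and 8 fell in Tak1-deficient against Tak1-sufficient SM&M1, with a median of -0.26 (10 fell without Tak1-deficient replicate 2). Of 60 interferon-stimulated genes 0 rose and 21 fell (median -0.76), and of 36 NF-κB pathway genes 0 rose and 9 fell (median -0.47); without that replicate 29 and 14 fell, beside 1.96% of all genes called lower in that fit. Beside these counts stand the 0 of 25 for the genes highest at M2, or 2 of 25 without that replicate; whether the share differs between the sets was not tested.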

How the data were processed

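RNA from 15 sorted thymocyte samples was amplified in a single round, biotinylated and hybridised to 1 array each, per the labels' protocols. What the authors deposited is an intensity on a linear scale for each of 45101 probe sets, scaled to a like trimmed mean in every array; the algorithm is not given in the sources used here. The intensities were taken to log2(intensity + 16) without another normalization. Probe sets were named through the platform annotation: 34945 had 1 gene (34741 given a current RefSeq symbol), 932 had several and were not used, 9160 were unnamed and 64 were controls.

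The 25 genes, the gene lists and the tests were chosen with earlier results of these data known. All 25 are named, with values by array. Comparisons used limma 3.58.1 in R 4.3.3 on 11871 genes with all 15 arrays in the fit, after a test of the code on simulated data. With 3 arrays per group, precision is limited by their number.

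Replicate numbers are those of the labels, with no statement of what they stand for. Deviations of same-numbered arrays correlated at 0.339, 0.275 and 0.411 between PreDP and PostDP and at 0.553, 0.436 and 0.326 between SM&M1 and M2, so the numbers were taken to pair these arrays; the reported fits have no block, and fits with one are alternatives. Between Tak1-deficient and other SM&M1 they correlated at -0.174, -0.192 and -0.244 and were not taken as paired. Alternatives were other pseudocounts, normalizations, probe set rules, filters, limits and fits, a replicate block, and leaving out arrays; leaving out a replicate number in all 4 stages, and the floor at the array median, were added after seeing the data.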

Additional observations from a re-analysis of the deposited data

How the results depend on the processing

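The choice of genes moved with its limits: a gap of 0.6 gave 46 genes, a gap of 1.0 gave 13 and an M2 minimum of 7 gave 39. Replicates 2 and 3 alone of SM&M1 and M2 gave 35. Other pseudocounts, scalings and probe set rules and an M2 minimum of 9 gave 19 to 27, with 18 of the 25 genes shared when the mean of all probe sets was used and 20 when each array was centred on its median. Leaving out single arrays gave 22 to 36 genes, and leaving out a replicate number gave 19 to 31.

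In Tak1-deficient against Tak1-sufficient SM&M1 the count of called genes was 0 in limma and 1 (Btbd11) with the mean of all probe sets, with the filter at the 75th percentile and with trended robust moderation. In turn, those fits called 212 of 10682, 279 of 7525 and 241 of 11871 genes tested. The count was 0 to 2 with single arrays left out, where 65 to 347 of 11871 genes were called. Under the remaining alternatives it was 0. Among these, the replicate block called 0% of all genes and a fit of these groups alone called 0.0421%. A count of 0 in those fits therefore says nothing about the 25 genes. In PostDP against PreDP the count was 3, and it stayed at 3 with single arrays of these groups left out. It was 5, all higher, both in a fit of these groups alone and with the replicate block. Beside it, 18.9% and 22.8% of all genes were called in those fits (9.3% and 11% higher). Without Tak1-deficient replicate 2 the count was 7, beside 25.2% of all genes (12.2% higher). For the maturation and egress list in M2 against SM&M1, 9 genes were called. The count was 16 in a fit of these groups alone and 18 with the replicate block, beside 3.61% and 5% of all genes called. Leaving out single arrays gave 6 to 19, where 82 to 672 of 11871 genes were called. The cause of these shifts was not tested.

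Among single genes, 21 of 368 values under the alternatives had another sign than reported for Tak1-deficient against SM&M1 (13 genes). For PostDP against PreDP it was 15 of 393 (6 genes), and 0 of all these were called. Some alternatives, such as other filters or a replicate block, leave the difference itself unchanged. Part of the 368 and 393 values therefore could not change sign. The M2 gap of a gene moved by at least the SD of its M2 arrays in 46 values and by less in 579. The 579 include settings that could not move the gap, such as other limits of the rule. They are therefore no measure of how stable the gap is. The 3 arrays per group, and the spread of the Tak1-deficient arrays, limit what could be detected.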
